A study of Mus musculus with 60 samples.

Results

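The regions described here are stretches of chromatin at gene promoters where H3K27me3 was lost at first and gained later in mouse cells without Tet1, and where the call of the mark varied between libraries. Of the 748 regions that the authors listed as loss-gain in KO, 634 overlapped by at least 1 bp a promoter, taken as 1.5 kb to either side of the start site of a protein-coding transcript, and 96 of these held a peak in all 30 H3K27me3 libraries. The remaining 538 are the members, at the promoters of 563 of 21901 annotated genes. They are set beside all 3840 regions of the series that were called in at least 2 libraries. The members were selected on these same data: KO and WT libraries without XAV, as the authors compared them, chose the rows, and the calls in the 30 libraries chose those that vary. Their direction in KO and WT without XAV is therefore a description and supports nothing.

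H3K27me3 is trimethylation of lysine 27 of histone H3, which Polycomb repressive complex 2 lays down over silent developmental genes. In embryonic stem cells (ESCs) it covers CpG-rich promoters, many of which also carry the active mark H3K4me3, a state called bivalent. TET1 oxidizes 5-methylcytosine at CpGs, an early step in removing DNA methylation, and also acts on chromatin without that catalytic activity.

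CUT&RUN was used to map the mark, an assay that releases antibody-bound chromatin with a tethered nuclease, and IgG served as its control. Mouse ESCs of a B6129S6F1 background, labelled Tet1<tm1Koh> in every group, were sampled at day 0 and at days 2, 3 and 5 of differentiation towards anterior neural progenitors, with bFGF from day 0 to day 3. A further set at day 5 (day 5 XAV) had received 5 µM XAV939, an inhibitor of Wnt signalling, from day 2. WT cells were compared with Tet1 KO cells and with Tet1 MUT cells, whose endogenous Tet1 was made catalytically inactive by Cas9 homology-directed repair. The MUT lines are clones of a WT line, and the KO lines were derived from blastocysts, so that a clone's own history cannot be told apart from the mutation within 1 line. H3K27me3 calls do not show TET1 itself or the identity of the cells, and neither was checked here. Each of the 15 groups held 2 cell lines, which are its replicates: WT70 and WT72 throughout, KO15 and CM59 throughout, KO25 and CM40 at days 0 and 2 only, and KO1 and CM69 from day 3 on. The second KO and MUT lines thus change between day 2 and day 3, so that line and time cannot be told apart there. A library's peak over 1 bp or more of a region made it called. A call does not tell apart fewer marked cells from a weaker mark in each cell.

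Peaks numbered 704 to 3466 per library (median 1789). CM59 at day 5 XAV, with 704, stood apart from the other library of its group, CM69 with 1924. Counts and directions that turn on it are also given without it.

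The promoters of members that the results turn on are shown first. Each line holds the 250 bases before a RefSeq start site on build GRCm38.p6, 5′ to 3′, with every CG dinucleotide in capitals because CpG density is the sequence property most often tied to Polycomb. The first set was called in both KO lines and neither WT line at day 5 XAV: Gpr176 (chr2:118373420-118373669, minus strand), Frrs1l (chr4:56990392-56990641, minus strand), Ripply2 (chr9:87015287-87015536, plus strand) and Egfem1 (chr3:29082281-29082530, plus strand).
Gpr176: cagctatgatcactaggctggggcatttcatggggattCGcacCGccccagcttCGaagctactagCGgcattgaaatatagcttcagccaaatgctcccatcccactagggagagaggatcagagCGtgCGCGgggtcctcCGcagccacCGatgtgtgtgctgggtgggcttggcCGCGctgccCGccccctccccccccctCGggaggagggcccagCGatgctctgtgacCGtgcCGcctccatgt
Frrs1l: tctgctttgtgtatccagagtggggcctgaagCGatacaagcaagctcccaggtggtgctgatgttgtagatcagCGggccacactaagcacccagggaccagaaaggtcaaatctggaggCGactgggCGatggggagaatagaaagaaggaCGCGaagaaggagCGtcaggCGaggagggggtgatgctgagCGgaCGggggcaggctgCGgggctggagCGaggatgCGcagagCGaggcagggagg
Ripply2: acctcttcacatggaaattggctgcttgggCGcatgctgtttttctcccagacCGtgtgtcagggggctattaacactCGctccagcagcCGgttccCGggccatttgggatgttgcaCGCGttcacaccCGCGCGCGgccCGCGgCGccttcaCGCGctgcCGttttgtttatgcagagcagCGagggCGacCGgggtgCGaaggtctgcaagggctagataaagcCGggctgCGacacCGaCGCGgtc
Egfem1: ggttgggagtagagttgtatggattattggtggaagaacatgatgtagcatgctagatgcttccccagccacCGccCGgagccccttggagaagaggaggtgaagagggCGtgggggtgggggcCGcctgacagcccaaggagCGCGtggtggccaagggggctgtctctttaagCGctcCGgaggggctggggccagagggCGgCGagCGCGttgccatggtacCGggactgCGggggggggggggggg
The second set holds members with low p-values in MUT against WT, Slc22a3 (chr17:12507705-12507954, minus strand) and Neto2 (chr8:85700925-85701174, minus strand).
Slc22a3: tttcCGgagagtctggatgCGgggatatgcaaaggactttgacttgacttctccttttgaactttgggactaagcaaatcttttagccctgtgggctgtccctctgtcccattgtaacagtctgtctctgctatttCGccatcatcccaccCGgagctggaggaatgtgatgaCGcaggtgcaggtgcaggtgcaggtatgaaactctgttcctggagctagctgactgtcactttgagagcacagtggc
Neto2: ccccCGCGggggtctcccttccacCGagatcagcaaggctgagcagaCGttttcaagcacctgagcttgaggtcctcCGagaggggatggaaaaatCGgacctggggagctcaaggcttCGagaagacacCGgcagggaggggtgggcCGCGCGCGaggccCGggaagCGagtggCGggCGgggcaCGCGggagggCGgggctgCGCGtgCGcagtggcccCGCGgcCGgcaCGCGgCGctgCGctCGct
The third set was called in all 4 MUT libraries of days 0 and 2 and in none of days 3 and 5: A930004D18Rik (chr2:18037742-18037991, minus strand) and Csf1 (chr3:107760470-107760719, minus strand).
A930004D18Rik: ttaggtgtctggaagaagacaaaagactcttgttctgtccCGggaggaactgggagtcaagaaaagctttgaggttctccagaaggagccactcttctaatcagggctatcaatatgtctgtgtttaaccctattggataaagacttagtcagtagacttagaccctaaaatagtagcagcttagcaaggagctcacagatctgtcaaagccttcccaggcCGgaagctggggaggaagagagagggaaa
Csf1: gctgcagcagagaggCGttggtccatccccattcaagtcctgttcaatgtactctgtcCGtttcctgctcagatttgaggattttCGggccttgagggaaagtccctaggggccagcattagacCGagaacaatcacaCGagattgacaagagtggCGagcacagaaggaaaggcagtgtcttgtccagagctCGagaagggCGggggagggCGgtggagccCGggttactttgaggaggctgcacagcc
The promoters ranged from 2 CG at A930004D18Rik and 5 at Slc22a3 to 26 at Ripply2 and 30 at Neto2. The 4 promoters with the KO pattern held 14, 14, 16 and 26. Their GC content lay between 61.2% at Frrs1l and 66.4% at Egfem1.

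Promoters of the members were rich in CpG beside all annotated promoters, but whole rows of members were not beside other regions at promoters. Whole rows of members had a median of 23.95 CpG per kb, against 24.91 over all 2993 regions at promoters. Loss-loss regions at promoters had 25.02 and gain-gain regions 25.11. RefSeq gave 436 promoters with a start site inside 373 of the 538 members. Over these 436, the median GC content of the 250 bases before the start was 64.0%, with a median of 17 CG and an observed-to-expected CpG ratio of 0.71. Over all 20148 promoters of annotated genes the same medians were 56.0%, 10 CG and 0.55. The letters GGGCGG, on either strand, stood in 63.3% of member promoters and in 44.1% of all. TATAAA stood in 5.50% against 11.2%, and CCAAT in 26.1% against 35.0%. Shares differed less for GAGAG, at 58.7% against 55.2%, and for the palindrome CACGTG, at 8.03% against 6.79%, while TGACTCA stood in 1.83% against 4.05%. None of these motifs holds another within it, and both strands were searched for each. A match is a run of letters only. Member promoters were set beside all annotated promoters and not beside those of the other lists.

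The members lay at start sites, as the rule requires. Their median width was 7002 bp (quartiles 5345 and 9067), against 7378 bp over all 2993 regions at promoters. The narrowest spanned 2303 bp and the widest 31037 bp. A start site lay inside 529 of the 538 (98.3%), against 98.2% of all regions at promoters. The middle of the row was a median of 678 bp from the closest start, against 798 bp over all regions at promoters. GC content of the whole row had a median of 49.2%, below the 51.9% of the 1089 gain-gain regions chosen in the same way and close to the 49.8% of the 450 loss-loss regions. No test was made of these differences, since the authors' lists were made from the same libraries.

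Members ran from nearly constant to nearly absent. The median member was called in 13 of 30 libraries, against 10 over all regions. At the upper end, 117 were called in 25 or more, and 43 of these in 29. Tbx18, a T-box factor of mesenchyme and heart, Syt6, a synaptotagmin, Fignl2/Gm47841 and Kcna2, a voltage-gated potassium channel, were the widest members in 29 libraries. At the lower end, 115 were called in 5 or fewer and 40 in 2. The widest of those were Tet3, which encodes another TET dioxygenase, Lpin2, Steap1 and Itga3. Tet3 was called in WT72 and CM40 at day 0, where peaks covered 98.2% of its row in each, and Itga3 in KO1 and KO15 at day 5. Of the 40 members called in 2 libraries, 24 were called in WT72 and CM40 at day 0, the libraries with 3450 and 3466 peaks.

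The border of the rule rests largely on 1 library. Of the 43 members called in 29 libraries, 28 lacked the call only in CM59 at day 5 XAV and 8 only in WT70 at day 3, which held 969 peaks. The 96 regions just outside the rule, with a peak in all 30 libraries, had a median width of 11950 bp. Members called in 25 to 29 libraries had a median of 9316 bp, those in 6 to 24 libraries 6998 bp, and those in 2 to 5 libraries 4540 bp. Across the 538 members, width and number of libraries called had a Spearman correlation of 0.68, and across all 3840 regions of 0.72. These values share the libraries and are a description, because a wider row has more bases in which a peak can fall and rows were built from the peaks. CpG density went the other way, with a median of 28.3 CpG per kb in members called in 2 to 5 libraries and 22.7 in those called in 25 to 29.

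**Figure D1:**
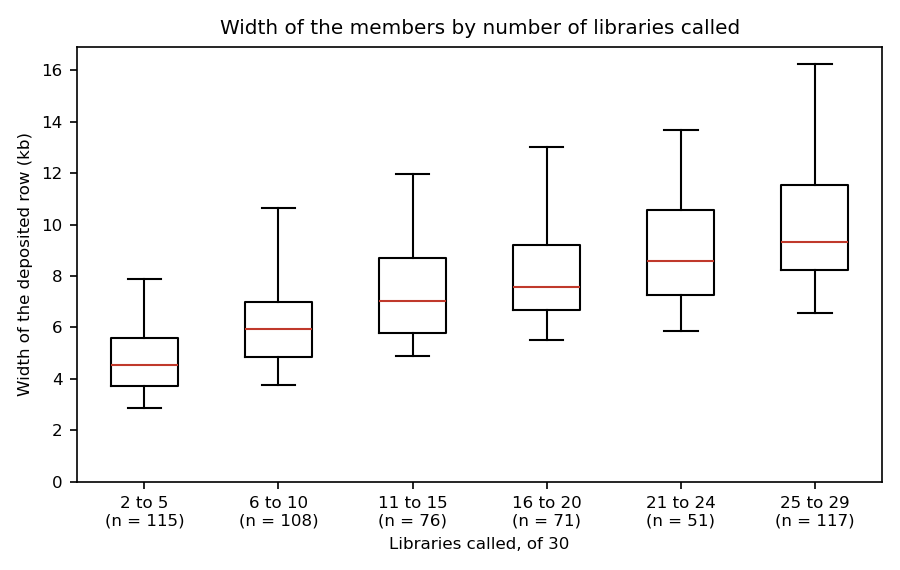
Width of the deposited rows in kb (vertical axis) for the 538 members grouped by the number of the 30 libraries in which they were called (horizontal axis, with n under each box). Boxes span the quartiles, the red line is the median and whiskers run from the 5th to the 95th percentile. Members called in 2 to 5 libraries had a median of 4540 bp and those called in 25 to 29 libraries of 9316 bp.

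The calls of the paired lines were nested. At day 0 all 208 members called in WT70 were among the 471 called in WT72. At day 5 all 168 called in CM69 were among the 440 of CM59, and at day 5 XAV all 48 of CM59 were among the 286 of CM69. Over the 15 groups, the share of the smaller set that lay within the larger was 93.6% to 100%. Over all regions the same share was 94.6% to 99.9%, so nesting was not particular to the members. The lines of a group thus differed mainly in how far down a common order of members their calls reached, as the map of calls shows.

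**Figure D2:**
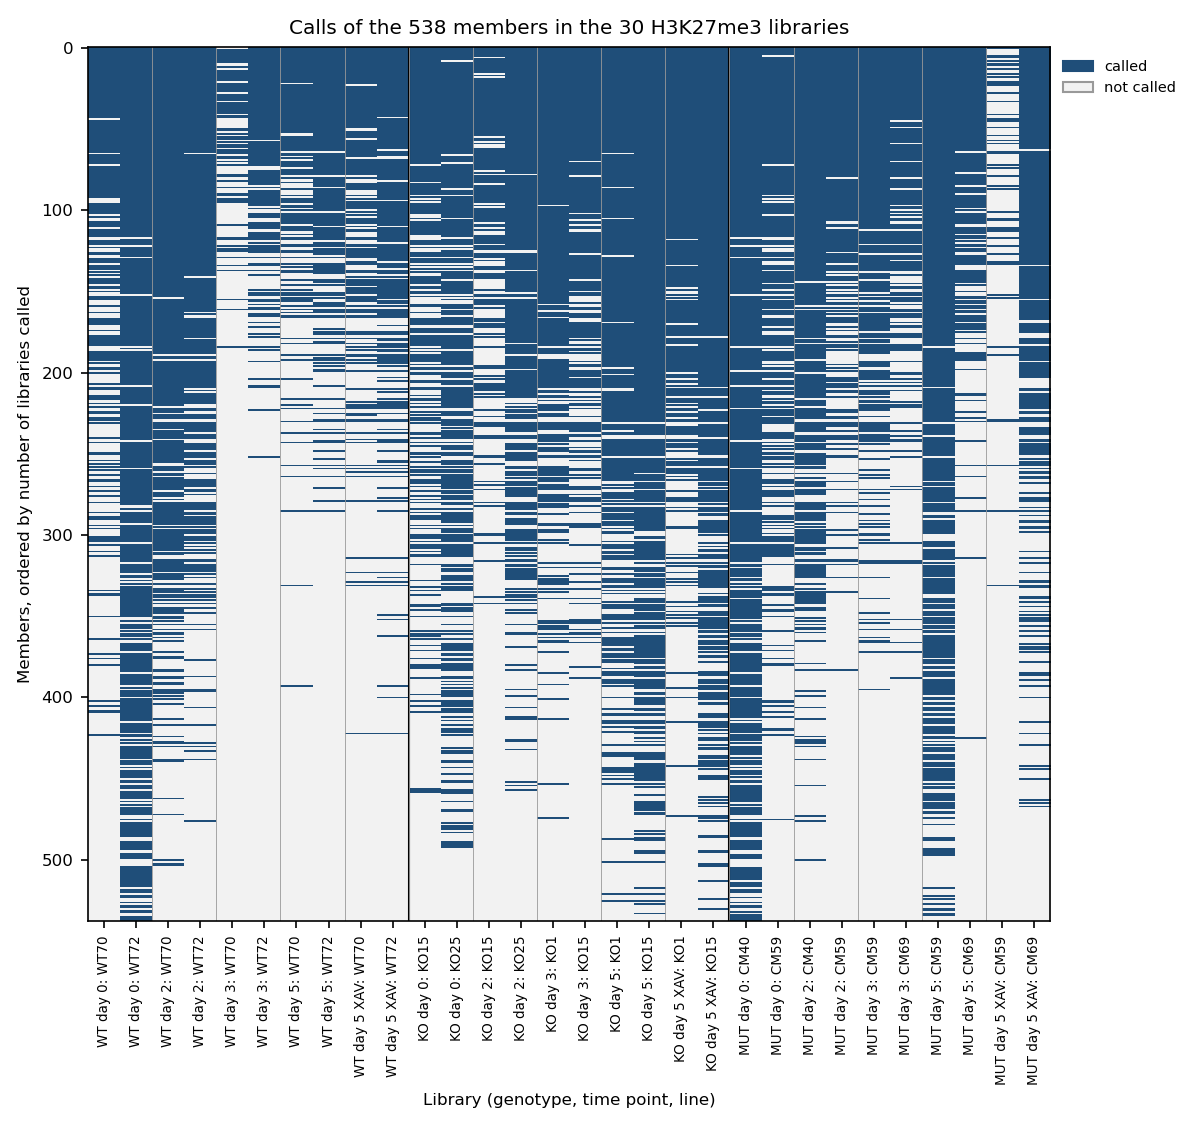
Each column is 1 of the 30 H3K27me3 libraries (genotype, time point and line) and each row 1 of the 538 members, ordered from the most to the fewest libraries called. Dark cells are calls. Columns reach down to different depths, from 48 members called in CM59 at day 5 XAV to 472 in CM40 at day 0, and WT columns from day 3 on are short.

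In WT cells, calls fell away after day 2 at the members and, less steeply, over all regions. At day 0, 38.7% of members were called in WT70 and 87.6% in WT72. At day 2 the shares were 66.0% and 55.6%, at day 3 13.4% and 25.7%, at day 5 24.7% and 32.3%, and at day 5 XAV 29.9% and 39.0%. Both WT libraries of days 3, 5 and 5 XAV lay below both of day 2. Over all regions, WT70 and WT72 stood at 54.6% and 46.1% at day 2 and at 20.3% and 26.4% at day 3. They held 2185 and 1856 peaks at day 2 and 969 and 1135 at day 3. With each library limited to its 704 strongest peaks by total signal, mean WT shares of members were 8.4% at day 2 and 6.5% at day 3. They were 5.5% at day 5 and 5.9% at day 5 XAV. The fall at the members is a description, since the WT libraries without XAV chose the rows. In KO cells the order was different. The shares were 44.4% (KO15) and 63.9% (KO25) at day 0, 30.7% (KO15) and 56.9% (KO25) at day 2, 52.8% (KO1) and 43.3% (KO15) at day 3, 64.9% and 78.8% at day 5, and 48.9% and 72.7% at day 5 XAV. In MUT cells they were 87.7% (CM40) and 48.3% (CM59) at day 0, 60.4% and 37.6% at day 2, 44.8% (CM59) and 32.3% (CM69) at day 3, 81.8% and 31.2% at day 5, and 8.92% and 53.2% at day 5 XAV. KO and WT did not overlap at days 3, 5 and 5 XAV, while MUT lay above WT at day 3 and overlapped it at day 5 and day 5 XAV. The same held over all regions at days 3 and 5 XAV for KO and WT, and at day 5 with 49.9% and 62.4% in KO against 27.3% and 31.0% in WT, so that the order of the genotypes was not particular to the members. With 2 lines against 2, the smallest two-sided exact permutation p is 0.33, so that no p is given for these shares.

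The number of peaks moved with these shares. At day 5 WT libraries held 1270 and 1385 peaks and KO libraries 2122 and 2738. When each library was limited to the same number of its strongest peaks within a time point, ranked by total signal, the shares drew together. At day 0, with 1484 peaks each, 39.2% ± 0.79 (SD, n = 2) of members were called in WT, 38.9% ± 0.79 in MUT and 29.5% ± 2.23 in KO. At day 2, with 1317 peaks, the values were 33.9% ± 0.92 in WT, 29.7% ± 1.31 in KO and 30.9% ± 3.55 in MUT. At day 3, with 969 peaks, the 3 genotypes overlapped, at 16.1% ± 3.81 in WT, 16.1% ± 2.50 in KO and 17.2% ± 2.23 in MUT. At day 5, with 1191 peaks, 23.9% ± 2.50 were called in WT, 31.6% ± 1.31 in KO and 30.7% ± 0.79 in MUT. At day 5 XAV, with CM59 left out and 1407 peaks, WT70 and WT72 reached 29.9% and 29.7%, KO1 and KO15 38.3% and 37.7%, and CM69 35.7%. So at equal numbers of peaks, KO lines lay below both WT and both MUT lines at day 0, below both WT lines at day 2, and above both WT lines at day 5 and day 5 XAV, and both MUT lines lay above both WT lines at day 5. Over all regions the order was the same at days 0, 5 and 5 XAV with smaller gaps. At day 0 KO stood at 34.1% and 32.9% against 34.5% and 35.3% in WT, and at day 5 at 28.0% and 27.7% against 25.8% and 26.6%. At day 2, KO (32.9% and 33.2%) and WT (33.2% and 32.8%) overlapped over all regions. The order of KO and WT at the members without XAV is a description, since these libraries chose the rows. How far the number of peaks accounts for the larger differences in all peaks was not tested.

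**Figure D3:**
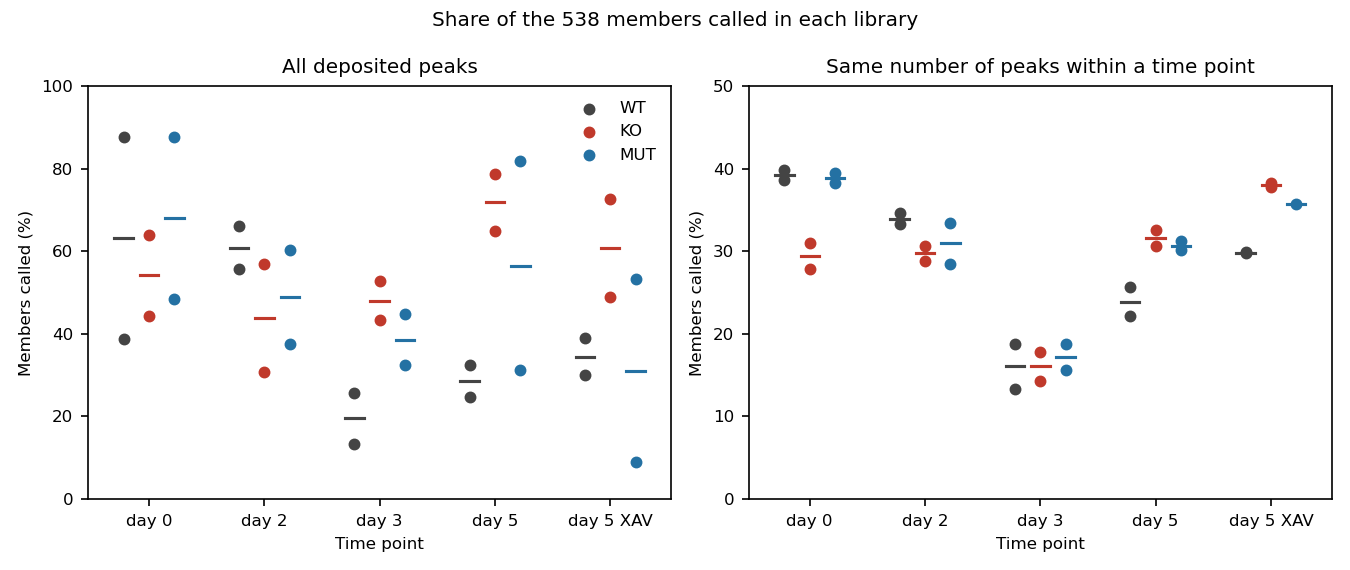
Percent of the 538 members called (vertical axis) at each time point (horizontal axis), with 1 point for each line and a bar at the mean of each genotype. The left panel uses all deposited peaks, with an axis to 100%, and the right panel the same number of peaks within each time point, without CM59 at day 5 XAV, with an axis to 50%. At day 3 WT and KO are apart in the left panel (means of 19.5% and 48.0%) and overlap in the right (16.1% each).

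The other lists are set beside the members at equal numbers of peaks, and since all were chosen by KO against WT without XAV, nothing is read from their KO and WT shares. At day 5, loss-loss regions at promoters were called at 11.8% and 11.3% in KO1 and KO15 against 26.2% and 26.7% in WT70 and WT72, while members stood at 32.5% and 30.7% against 22.1% and 25.6%. Gain-gain regions stood at 26.2% and 25.9% in KO and 14.0% and 15.1% in WT. In MUT, which entered only the condition that calls vary, loss-loss regions stood at 21.6% and 20.0% at day 5, and members at 30.1% and 31.2%. The MUT shares of both lists at day 5 lay between those of WT and KO or beside KO. Over all regions, CM59 and CM69 stood at 27.7% and 27.2% at day 5. The choice of rows set WT and KO apart, so the place of MUT beside them is a description. At day 0, MUT members (39.4% and 38.3%) lay beside WT (38.7% and 39.8%).

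The comparison at day 5 XAV asks whether KO cells still differ once Wnt signalling is inhibited. Its libraries entered the choice only through the condition that calls vary, by which CM59 at day 5 XAV alone made 28 of the members, and they come from the lines that chose the rows. Of the 538 members, 63 (11.7%) were called in both KO lines and neither WT line, against 7.53% of all 3840 regions. In the opposite direction the count was 0, against 0.417%. At equal numbers of peaks, 1407 for each library without CM59, the counts were 26 (4.83%, against 3.91% of all regions) and 6 (1.11%, against 1.85%). With 704 peaks they were 16 (2.97%, against 2.34%) and 6 (1.11%, against 1.07%). The excess over the background was thus smaller at equal numbers of peaks, and calls in the opposite direction appeared. For comparison, at day 5 without XAV, which chose the list, 166 members (30.9%) had the KO pattern, with 19.7% of all regions, and nothing is read from this. At day 0, also used by the rule, 4 members were called in both WT lines and neither KO line, with 0.286% of all regions. These were Rgs6, Bmpr1b, I0C0044D17Rik/Kank4 and Hs3st4, named after their values were seen.

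**Figure D4:**
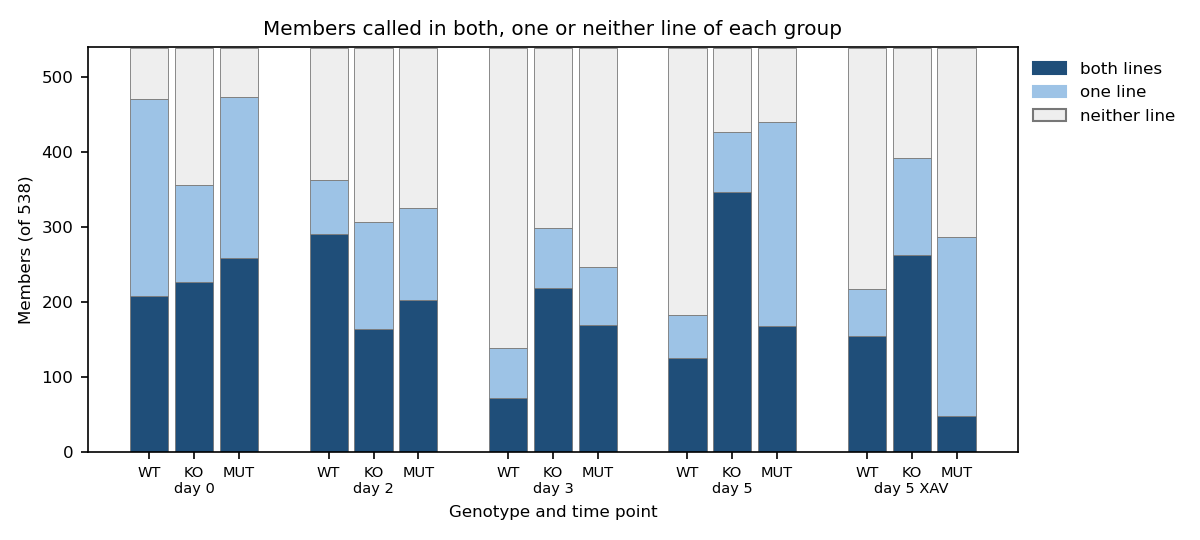
Number of the 538 members (vertical axis) called in both, 1 or neither of the 2 lines of each genotype, by time point (horizontal axis). WT bars shrink from 291 members called in both lines at day 2 to 72 at day 3, KO bars reach 346 at day 5, and at day 5 XAV 154, 262 and 48 members were called in both lines of WT, KO and MUT.

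Most of the 63 members with the KO pattern at day 5 XAV had been called in WT before. Of these 63, 43 were called in both WT lines at day 2 and 3 at day 3. Over all members those shares were 54.1% and 13.4%, and over all regions 44.9% and 19.9%. After day 2, 48 were called in no WT library, which is partly built in, since none was called in WT at day 5 XAV. No WT library at any time called 5 of them (Cobl, Gm8439, Ampd3, Grtp1 and Cacna1a, named after their values were seen). In the KO lines, 46 were called in both at day 5, as were 64.3% of all members and 49.3% of all regions. All 6 KO libraries and no WT library from day 3 on called 16 of them. Of the 63, 61 are also rows of the authors' gain list for KO under XAV at day 5, which used these libraries. That list shares 371 rows with the members, 69% of the members and 19.6% of its 1897 rows. In MUT at day 5 XAV, 47 of the 63 were called in 1 line and 16 in neither, and the line was CM69 in each case. Of all members, 44.2% were called in 1 MUT line there and 46.8% in neither, with 53.7% of all regions in neither.

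Of the 16 members called in all 6 KO libraries and no WT library from day 3 on, the 6 with the widest rows are described. Cacna1a, on chr8:84410374-84420907, encodes the pore of the P/Q-type calcium channel that triggers transmitter release. No WT library called it. Its row was covered by peaks over 73.5% in KO1 and 25.5% in KO15 at day 3, 99.2% and 98.4% at day 5, and 76.5% and 29.3% at day 5 XAV. Among MUT libraries only CM59 called it, over 30.8% at day 3 and 72.3% at day 5. The KO libraries without XAV entered the selection of the row.

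Frrs1l, on chr4:56985263-56994973, encodes a protein of AMPA receptor complexes. It was called in all 10 KO libraries and in 4 WT libraries, those of days 0 and 2, where peaks covered 51.7% to 81.2% of the row. At day 5 the cover was 91.6% in KO1, 76.9% in KO15, 52.1% in CM59 and 52.5% in CM69. At day 5 XAV it was 52.4% in KO1, 55.5% in KO15 and 37.6% in CM69, with no call in WT70, WT72 or CM59. By maximum signal, its tallest peaks at day 5 XAV stood at the 10.5 and 11.5 percentiles of all peaks of KO1 and KO15.

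Gpr176, an orphan G protein-coupled receptor (chr2:118367205-118377647), was called in 3 WT, 9 KO and 7 MUT libraries of 10 each. Ripply2, a regulator of somite boundaries (chr9:87010162-87018655), was called in 4, 8 and 7. Egfem1 (chr3:29078946-29087075) was called in 4, 9 and 7, and Ank1, the membrane skeleton protein ankyrin 1 (chr8:23055968-23063987), in 3, 8 and 6. At day 5 XAV the KO peaks covered 46.8% and 46.3% of the row at Gpr176, 59.5% and 58.0% at Ripply2, 81.1% and 91.2% at Egfem1, and 68.5% and 69.5% at Ank1, in KO1 and KO15 in turn. CM69 called each of these 4 and CM59 none. KO and CM69 thus shared these calls, over less of the row in CM69 at Gpr176 (31.7%), Ripply2 (32.1%), Egfem1 (38.7%) and Ank1 (46.9%).

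MUT and KO were also set side by side. At day 5 XAV, 22 members (4.09%) were called in both KO lines and neither MUT line, against 3.54% of all regions, and 0 in both MUT lines and neither KO line, against 0.0781%. Counts in which MUT had to be called in both lines rest on CM59. With CM69 alone, an alternative chosen after seeing the data, 22 members (4.09%, against 3.57% of all regions) were called in both KO lines and not in CM69, and 1 (0.186%, against 0.703%) in CM69 and neither KO line. CM69 and neither WT line held for 82 (15.2%, against 9.27%). None of the members was called in both MUT lines and neither WT line, against 0.104% of regions, and 2 were called in both WT lines and neither MUT line, against 0.859%. These 2 were Slc22a3, an organic cation transporter, and Chrm4, a muscarinic acetylcholine receptor named because the count is small. At day 5 without XAV, 11 members (2.04%) were called in both KO lines and neither MUT line, against 2.73% of all regions.

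At day 3 and day 5, calls in both MUT lines were more frequent among the members than among all regions. At day 3, 47 members (8.74%) were called in both MUT lines and neither WT line, against 5.0% of all regions. At day 5 the count was 28 (5.20%), against 2.03%. With 1191 peaks in each library at day 5, it was 21 (3.90%), against 1.82%, and with 969 at day 3 it was 7 (1.30%), against 0.677%. The reverse pattern, both WT lines and neither MUT line, held for 4 members (0.743%) at day 5 with equal numbers of peaks, against 1.51% of all regions. The MUT libraries entered only the condition that calls vary, but the WT libraries also chose the rows, and a row that was low in WT at day 5 could enter the list more easily. At day 5, MUT exceeded WT in the number of lines called at 285 members (53.0%, against 35.6% of all regions) and fell below at 12 (2.23%, against 3.59%). This rests on CM59: the difference MUT minus WT in the share of members called at day 5 was 28.0 points with both MUT lines and 2.70 without CM59.

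Over all 5 time points, 518 members had at least 2 calls in MUT and WT and were tested by an exact test stratified by time point, with 10 libraries a genotype. These come from 2 WT and 3 MUT lines that recur over time points, and the test takes libraries as independent. MUT libraries were called more often at 269 (51.9%, against 37.9% of all regions tested), less often at 96 (18.5%, against 16.8%) and equally at 153. The WT libraries without XAV also chose the rows, so these directions are a description. At an unadjusted exact p under 0.05, 0 members were higher, against 0.205% of the 3420 regions tested, and 0 lower, against 0.146%. After Benjamini-Hochberg adjustment over all regions 0.0% passed, and the lowest adjusted p was 1.0. Without CM59 at day 5 XAV, 8 members passed the unadjusted threshold, all higher in MUT, against 1.11% of regions. The lowest p among members in the full set was 0.0833 by the exact test, shared by 5 members.

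Frrs1l (8 MUT and 4 WT libraries of 10), Neto2 (8 and 4), Sfrp1 (6 and 2) and Gm10160/Tm6sf1 (7 and 3) had that p in the direction of MUT, and Slc22a3 (3 and 7) in the direction of WT. Neto2 encodes an accessory subunit of kainate receptors and Sfrp1 a secreted inhibitor of Wnt ligands. Sfrp1 was called in both MUT lines at day 0 and in neither WT nor KO line there. At day 2 it was called in all 6 libraries, with cover of 72.7% to 97.9%. After day 2 it was called in 2 KO libraries, both at day 3, and in CM59 at days 3 and 5, but in no WT library. Towards WT, Nags (5 MUT and 9 WT libraries, exact p = 0.153), Bace2 (5 and 8, exact p = 0.167) and Lin7a (5 and 8, exact p = 0.167) followed. None of these passed the test.

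Across time in MUT, days 3 and 5 were compared with days 0 and 2 by the exact test, 4 libraries against 4, for 452 members. The smallest p this design allows is 0.0286. It was reached by 5 members (1.11%), all lower at days 3 and 5, against 1.3% of the 2542 regions tested, and by 0 members that were higher, against 0.118%. After adjustment 0.0% of regions passed, with a lowest adjusted p of 1.0. The share of the members was thus no higher than the background. Of the 452, 188 had fewer calls at days 3 and 5 (41.6%, against 40.3% of all regions tested), 54 more (11.9%, against 10.2%) and 210 the same number.

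The 5 were A930004D18Rik/Mllt10/Skida1, Csf1, Otop2/Ush1g, Cdh13 and Adra1b, the last named because the count is small. Csf1, the growth factor of macrophages (chr3:107750653-107769695), was called in all 4 WT and all 4 MUT libraries of days 0 and 2 and in no WT or MUT library later. In KO it was called in the 4 libraries of days 0 and 2 and in KO1 at day 3. A930004D18Rik/Mllt10/Skida1 (chr2:18024896-18054963) had the same calls without KO1 at day 3, in 12 libraries in all. Cdh13, a cadherin without a transmembrane part, was called in 3 WT, 3 KO and 4 MUT libraries, all of days 0 and 2. At Otop2/Ush1g, KO kept a call in both lines of days 3 and 5, and WT in 1 line at day 3. Thus no library of any genotype called Cdh13 or A930004D18Rik/Mllt10/Skida1 after day 2. In the other direction, Nexmif (0 of 4 MUT libraries before day 3 and 3 of 4 after), Pcsk6, Rbmxl2 and Fzd9, a Wnt receptor, had an exact p of 0.143. Rbmxl2 was called in no WT library, in 5 KO libraries and in 3 MUT libraries, all from day 3 on.

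The comparison of day 5 XAV with day 5 asks what Wnt inhibition did at these promoters. The test was stratified by genotype, with 6 libraries against 6, for 434 members. The KO and WT libraries of day 5 chose the rows, so their change under XAV is a description. Calls were fewer with XAV at 265 (61.1%, against 42.6% of all regions tested), more at 67 (15.4%, against 21.3%) and equal at 102. Without the line CM59, 404 members were tested and the direction turned, with fewer calls at 97 (24.0%, against 21.1%) and more at 130 (32.2%, against 34.7%). At an unadjusted exact p under 0.05, 0 members were higher with XAV, against 0.412% of the 2671 regions tested, and 0 lower, against 0.112%. None of the regions passed after adjustment (0.0%), with a lowest adjusted p of 1.0. The direction moved with the libraries. In WT, 154 members were called in both lines with XAV and 125 without. In KO the counts were 262 and 346, and in MUT 48 and 168, the last resting on CM59. Without CM59 at day 5 XAV, 1 member passed, with more calls under XAV, against 1.35% of regions. With the same number of peaks within each time point, 67 members passed with fewer calls under XAV when CM59 set the number at 704, against 13.1% of regions, and 12 with more calls when it was left out, against 6.16%, since the numbers of peaks kept at day 5 XAV and day 5 then differ by construction.

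The gene lists differ in size, so counts of members are to be read beside the number of list genes at any region. That number was 31 for sodium, calcium and cation channels, 28 for ionotropic and 56 for metabotropic receptors, and 45 for synaptic proteins. It was 46 for axon guidance, 25 for cadherins and 18 for the neuronal cytoskeleton. For signalling it was 42 (Wnt), 38 (BMP, Nodal and TGF-beta) and 36 (FGF, Hedgehog and Notch). Neuropeptide, endoderm, pluripotency and germline lists had 12, 13, 15 and 5. Of all 3840 regions, 538 are members. Potassium channels had 12 members of 57 list genes at any region, with a median of 24 libraries called against 13 over all members. They included Kcna2, Kcnk10, Kcnma1 and Kcns1, each called in 28 or 29 libraries. Sodium, calcium and cation channels had 6, with Cacna2d3 called in 29 libraries, Cacna1e in 25 and Cacna1a in 8. Their mean share at day 5 XAV was 58.3% in WT, 100% in KO and 66.7% in MUT, against 34.5%, 60.8% and 31.0% over all members. Ionotropic receptors had 8 members. Grin1, an obligatory NMDA receptor subunit, was called in 17 libraries and Grik1 and Grik2, kainate receptor subunits, in 25 and 8. P2rx2, an ATP-gated channel that shares its row with Lrcol1, was called in 8. The mean share of the ionotropic receptors at day 5 XAV was 6.25% in WT, 75% in KO and 18.8% in MUT. Of the 8, 3 had the KO pattern (Grin1, P2rx5 and Gabra2, the last pair named because the count is small), against 11.7% of all members and 7.53% of all regions. The axon guidance list also stood apart at day 5 XAV, at 16.7% in WT and 66.7% in KO. Neural progenitor and neuronal transcription factors stood at 37.5% and 75%. WT and KO were level for cadherins (50%), the FGF, Hedgehog and Notch list (37.5%), the neuronal cytoskeleton (100%) and the endoderm list (100%). The neuropeptide list stood at 100% in WT and 50% in KO. On the remaining lists with members, KO lay above WT. With lists this short, and rows chosen for a gain in KO, these shares are a description.

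Metabotropic receptors had 14 members and 2 with the KO pattern, Ntsr2 and Grm3, the latter named because the count is small. Drd5 and Drd4, dopamine receptors, were each called in 26 libraries and Galr1, a galanin receptor, in 29. Synaptic proteins had 9 members, with a median of 27 libraries, among them Syt6, Slc6a2, the noradrenaline transporter, and Syt2 in 29 each and Dlgap1, a scaffold of the postsynaptic density, in 13. Of the 9, only Syt10 had the KO pattern, and it is named for that reason. Axon guidance had 3 members, Sema6d in 19 libraries, Unc5c in 13 and Robo2 in 5. Unc5c, a netrin receptor, had the KO pattern. Cadherins had 4, Dchs1 in 26, Cdh8 in 29, Cdh13 in 10 and Celsr2 in 5. Mapt, which encodes tau, was called in 27 and Nefl, a neurofilament, in 21. The single neuropeptide gene was Penk, the precursor of enkephalins. It was called in all WT libraries of days 0, 2 and 5 XAV and in none of days 3 and 5.

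Among developmental regulators, the neural transcription factor list had 4 members of 105 genes at a region. Cfap61/Insm1 was called in 26 libraries, Nkx6-3 in 25 and Ebf4 in 20. Sox2, a factor of both pluripotency and neural progenitors (chr3:34637945-34651759), was called in 14. At day 2 all 6 libraries called it, with cover of 20.9% in CM59 to 49.9% in WT72. At day 5 the KO libraries alone showed broad calls, over 79.1% of the row in KO1 and 67.4% in KO15, against 22.0% in CM59 and no call in WT70, WT72 or CM69. At day 5 XAV no library called Sox2. Klf4 and Tfcp2l1, factors of naive pluripotency, were called in 21 and 3 libraries. Klf4 lacked a call in all 6 libraries of day 0 and gained it in all 6 of day 2. Mesoderm regulators had 5 members of 40. Tbx18 and Lmo2 were called in 29 libraries, Kdr, a VEGF receptor of blood vessel precursors, in 23 and Mef2c in 9. Cdx4 was the single endoderm list member, in 18.

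Signalling pathway genes were also among the members. The Wnt list had 8. Notum, a secreted Wnt deacylase, was called in 29 libraries, Lef1, a nuclear effector, in 25, Fzd10 in 19 and Sfrp1 in 12. Lef1 was called in all WT libraries of days 0, 2 and 5 XAV but in none of days 3 and 5, while KO called it in all 10. The BMP, Nodal and TGF-beta list had 10, among them Grem1, a BMP antagonist, in 28, Tgfb1 and Bmp3 in 25 each and Bmpr1b, a BMP receptor, in 9. The FGF, Hedgehog and Notch list had 4. Fgf2 was called in 23, including all 10 KO libraries, and Fgf15 in 17, while Gli2, a Hedgehog effector, and Fgfr2 were called in 10 and 9. Gli2 was called in both MUT lines at days 2 and 3 and in no WT or KO library after day 2. Of the germline genes, Tdrd6 was called in 23 and Fam217b/Ppp1r3d/Sycp2 in 18. Hox clusters, with 39 genes at any region, and housekeeping genes, with 3, gave 0 members. Brsk2, Sh2d5 and Kif17, which the study showed, lie in regions of the gain-gain list and so are not members. Among members, only Sox2 stood on more than 1 list, and no list was tested.

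**Figure D5:**
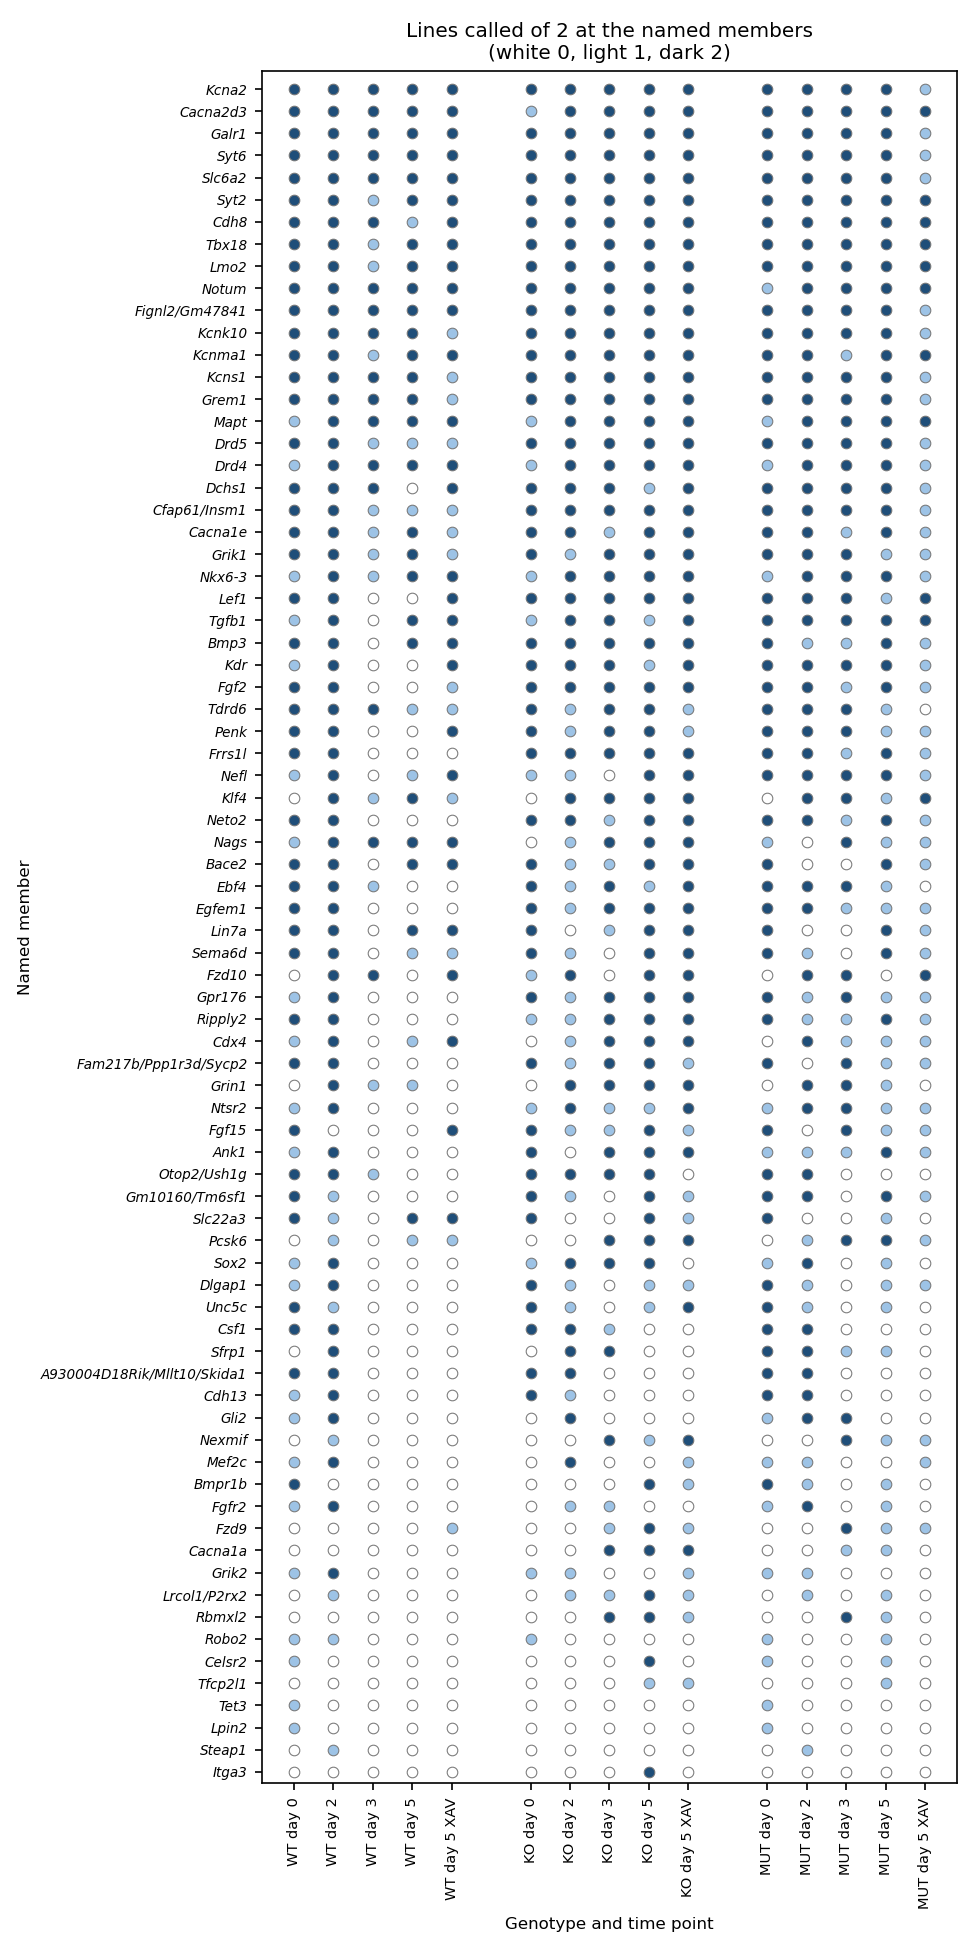
Named members (rows, by gene symbol, from most to fewest libraries called) and the 15 groups (columns). Each circle gives the number of the 2 lines called, with white for 0, light for 1 and dark for 2. Frrs1l, Neto2, Ripply2 and Ank1 are white in WT from day 3 on, where at least 1 KO line was called at each time, and Csf1 and Cdh13 empty after day 2 in both WT and MUT.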

How the data were processed

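H3K27me3 peaks of 30 CUT&RUN libraries were analysed, and 30 IgG libraries entered only through peak calling. Trimming (Trim Galore), local alignment to GRCm38.p6 (Bowtie) and deduplication (Picard) were done by the authors, who then ran SEACR in stringent mode on each library against its IgG. The SEACR version is not given in the sources used here. The deposited peak columns hold the total and the maximum signal of each peak. The authors made the region lists with DiffBind 3.0.15 in R 4.0.5 from KO and WT libraries, and the deposited lists give positions. Per the labels, sequencing aimed at a set minimum of reads for every sample, but the depth of each library is unknown, so its number of peaks is given in its place and no counting interval. The samples of KO25 were assigned by title and cell line, although their description names a file of WT70.

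Promoters came from GENCODE M21 on the reference chromosomes, and base composition from the GRCm38.p6 reference. The 3840 regions comprised the deposited rows and merged peaks outside them, each with calls in at least 2 libraries. Calls were compared by a two-sided exact conditional test, stratified where stated, with Benjamini-Hochberg adjustment over all regions with at least 2 calls in the comparison. The test was checked on simulated data. The test takes libraries as interchangeable within a stratum, although lines recur over time points. Its p-values therefore do not measure the spread between lines. Python 3.11.15, NumPy 2.4.6, SciPy 1.17.1, pandas 2.3.3 and Matplotlib 3.10.9 were used. The members and gene lists were chosen with earlier results of these data known.

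Named were up to 4 of the widest members per list, the 6 members with the KO pattern at day 5 XAV that had the largest surplus of KO over WT calls from day 3 on (ties by wider row), the 4 called in most and in fewest libraries, and the 4 with the lowest p in each direction for MUT against WT and for time in MUT, of which 1 is not reported here. Alternatives were a cover of at least 500 bp, equal numbers of peaks, promoter windows of 3 kb and 0 kb, each line left out and the cell line as a block.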

Additional observations from a re-analysis of the deposited data

How the results depend on the processing

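Each group held 2 lines, and the read depth of each is unknown, so that shares and counts carry the error of 2 values. Requiring 500 bp of cover, a promoter window of 3 kb or a start site inside the row moved no count by more than 1.5 times.

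The number of peaks moved most results. With the same number in every library, 5 members passed for MUT and WT (all higher, 1.48% of regions), 2 for time in MUT (lower, 1.97%) and 6 for XAV (4 higher, 2.29%, and 2 lower, 0.873%), against 0, 5 and 0. With the same number within each time point the counts were 1 (lower, 0.641%), 11 (lower, 5.54%) and 67 (lower, 13.1%), and with the CM59 day 5 XAV library left out as well, an alternative chosen after seeing the data, 5 (2 higher, 0.449%, and 3 lower, 0.849%), 11 (lower, 5.54%) and 12 (higher, 6.16%). Leaving out that library alone, also chosen after seeing the data, gave 8 for MUT and WT and 1 for XAV. The KO count at day 5 XAV went from 63 to 16 under both of the first settings and to 26 without CM59, and the WT count from 0 to 6 under all 3. The difference KO minus WT at day 5 XAV was 26.3 points, and 2.88 in both of the first settings and 8.18 in the third. At day 5 it was 43.3, 8.18, 7.71 and 7.71. The difference MUT minus WT at day 5 XAV was -3.44 points and reversed to 2.79 under both of the first settings and to 5.86 in the third. At day 5 it was 28.0, and 4.37, 6.78 and 6.78 in the 3 settings. The cause was not tested, except that fewer peaks give fewer calls by construction.

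Leaving out each line in turn gave 0 to 1 members for MUT and WT, 0 to 0 for time in MUT, where the smallest p that remains is 0.0667 or 0.33, and 0 to 1 for XAV, the 1 without CM59. The differences ran from 14.4 to 38.2 points (KO minus WT, day 5 XAV), -25.6 to 18.7 (MUT minus WT, day 5 XAV), 36.3 to 50.3 (KO minus WT, day 5) and 2.70 to 53.3 (MUT minus WT, day 5). MUT minus WT at day 5 XAV reversed without CM59 (18.7) and without WT72 (1.11).

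With the cell line as a replicate block, the count for XAV was 0. Deviations of the lines at day 5 and day 5 XAV correlated at 0.12 in WT, 0.16 in KO and -0.23 in MUT over 3840 regions.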
